A study of Mus musculus with 32 samples.

Results

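The 10 genes described here build, coat and break down the lipid droplets of the cell: Plin3, Cideb, Cidec, Pnpla2, Abhd5, Lipe, Agpat2, Lpin2, Lpin3 and Gpam. HNF4A ChIP-seq peaks were taken from all 8 libraries of jejunal intestinal epithelial cells (IECs), and peaks that shared at least 1 bp were merged into sites. A site was assigned to a gene when it touched the gene body or the 20 kb on either side (mm9, GENCODE M1). This gave 83 of the 45552 merged sites, or 0.182%, and each of the 10 genes had at least 3.

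The mice were male C57BL/6J of 10 to 12 weeks, either reared germ-free and given a high-fat meal (GF+HFM, 4 libraries) or taken from germ-free housing, colonized with a conventional microbiota for 14 days and given the same meal (CV+HFM, 4 libraries). Tissue was collected 2 hours after the egg yolk meal, and each library came from 1 mouse. The preparation was not sorted. It was rich in villus epithelium but also held crypt and some mesenchymal cells. Libraries without the meal, and the RNA-seq and H3K27ac libraries, were not analysed here, so the comparison is of microbial status after a meal only.

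In an enterocyte, absorbed fatty acids are re-esterified onto a glycerol backbone at the endoplasmic reticulum. The triacylglycerol made there leaves in chylomicrons or is held for a time in cytosolic droplets. Perilipins coat the droplets, CIDE proteins bring droplets together and act in lipid transfer, and a chain of lipases returns the stored fat as fatty acids. HNF4A is a nuclear receptor that binds DNA as a homodimer at direct repeats of a receptor half-site, and in the small intestine it occupies regulatory regions of genes for lipid metabolism and enterocyte differentiation.

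The HNF4A element searched for was CAAAGTCCA, on both strands, in the 200 bp at the middle of the bases shared by the libraries that called a site. An exact copy lay in 6 of the 83 sites (7.23%) and in 5.98% of the 45324 sites with sequence. With at most 1 mismatch it lay in 27 sites (32.5%) against 33.6% of all. The 6 exact copies are shown with 20 bases on either side, read on the strand of the copy (mm9 reference), because they place the receptor's own motif inside the sites of 5 of the genes. Capitals mark the copy.
Lipe, chr7:26177295-26177343, minus strand: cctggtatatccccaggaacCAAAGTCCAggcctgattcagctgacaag
Abhd5, chr9:122246964-122247012, minus strand: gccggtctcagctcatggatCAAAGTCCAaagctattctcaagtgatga
Lpin2, chr17:71540596-71540644, minus strand: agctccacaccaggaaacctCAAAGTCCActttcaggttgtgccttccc
Lpin2, chr17:71566714-71566762, plus strand: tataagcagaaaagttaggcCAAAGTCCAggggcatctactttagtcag
Cideb, chr14:56356122-56356170, minus strand: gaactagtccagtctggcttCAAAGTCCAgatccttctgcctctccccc
Gpam, chr19:55140865-55140913, plus strand: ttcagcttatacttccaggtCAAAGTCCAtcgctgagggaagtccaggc

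The Lipe copy lay in a site called in all 8 libraries, 10 bp from the middle of the bases those libraries shared. The Abhd5 copy lay 2 bp from the middle of the shared bases of a site that 4 GF+HFM libraries and 3 CV+HFM libraries called. The first Lpin2 copy belonged to a site of 4 and 2 libraries, in the same order, and the second to a site of 4 and 1. The Cideb copy belonged to a less widely called site of 2 and 1 libraries, and the Gpam copy to a site of 1 and 1. Exact copies thus lay in sites called by 2 to 8 libraries. Of the 14 sites called in 1 library 0 held one, and over all such sites the share was 3.49%. With at most 1 mismatch, 5 of those 14 (35.7%) held the element, against 23.4% of all sites called in 1 library.

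A direct repeat of AGGTCA with 1 base between the copies was also searched on both strands, and could overlap the element above. At most 2 mismatches were found in 11 of the 83 sites (13.3%) and in 14.6% of all. At most 3 were found in 40 sites (48.2%) against 45.9%. These shares were close to those over all sites for both motifs. By gene, the element with at most 1 mismatch was in 8 of the 10 Plin3 sites, 5 of the 13 Lpin2 sites, 3 of the 8 Lipe sites and 0 of the 6 Lpin3 sites, counts picked out after they were seen. A match is a string of letters and was not tested for binding.

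The bases common to all calling libraries are shown for the widely called sites of Agpat2, Cideb, Plin3 and Pnpla2, for the Lpin2 site called in all 4 GF+HFM and no CV+HFM library, and for the Gpam site called in CV+HFM alone (mm9, plus strand). Capitals mark the element with at most 1 mismatch or the direct repeat with at most 2, on either strand.
Agpat2, chr2:26455697-26455785, plus strand: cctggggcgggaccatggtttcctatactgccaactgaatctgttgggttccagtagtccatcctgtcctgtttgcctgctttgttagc
Agpat2, chr2:26456283-26456542, plus strand: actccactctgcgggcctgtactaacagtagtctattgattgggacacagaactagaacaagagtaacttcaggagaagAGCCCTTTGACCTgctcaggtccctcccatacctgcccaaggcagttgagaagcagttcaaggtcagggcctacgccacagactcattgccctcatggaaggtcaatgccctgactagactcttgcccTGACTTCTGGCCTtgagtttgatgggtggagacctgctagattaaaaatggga
Agpat2, chr2:26466746-26466910, plus strand: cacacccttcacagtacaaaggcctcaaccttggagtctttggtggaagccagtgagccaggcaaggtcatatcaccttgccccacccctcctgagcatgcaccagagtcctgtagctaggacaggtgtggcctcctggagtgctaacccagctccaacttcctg
Agpat2, chr2:26477013-26477151, plus strand: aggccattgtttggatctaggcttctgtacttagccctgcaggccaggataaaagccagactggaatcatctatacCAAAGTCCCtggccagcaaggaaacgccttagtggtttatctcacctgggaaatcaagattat
Cideb, chr14:56377346-56377439, plus strand: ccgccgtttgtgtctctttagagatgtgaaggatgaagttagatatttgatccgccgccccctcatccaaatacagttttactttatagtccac
Plin3, chr17:56414794-56414919, plus strand: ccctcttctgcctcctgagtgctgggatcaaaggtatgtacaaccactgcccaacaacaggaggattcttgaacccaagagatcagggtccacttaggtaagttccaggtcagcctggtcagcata
Pnpla2, chr7:148622992-148623151, plus strand: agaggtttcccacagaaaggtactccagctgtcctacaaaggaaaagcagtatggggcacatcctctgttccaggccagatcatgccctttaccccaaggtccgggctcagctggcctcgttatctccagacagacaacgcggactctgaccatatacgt
Lpin2, chr17:71556756-71556853, plus strand: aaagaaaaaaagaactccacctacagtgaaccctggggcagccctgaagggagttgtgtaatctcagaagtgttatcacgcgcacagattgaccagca
Gpam, chr19:55206848-55207024, plus strand: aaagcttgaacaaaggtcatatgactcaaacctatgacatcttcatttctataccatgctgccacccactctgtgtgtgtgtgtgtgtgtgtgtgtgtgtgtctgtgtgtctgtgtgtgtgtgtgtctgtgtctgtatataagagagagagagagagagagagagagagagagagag

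Among the 4 Agpat2 sequences, the second holds 2 matches to the direct repeat on the minus strand and the fourth holds 1 near copy of the element. The printed bases of the Cideb, Plin3, Pnpla2 and Lpin2 sites hold neither motif at these limits. The 200 bp windows used for the counts reach further at the Cideb and Lpin2 sites. There the Cideb window holds the element with 1 mismatch, across the edge of the printed bases. The Lpin2 window holds a direct repeat with 2 mismatches, outside the printed bases. The Gpam sequence runs into GT and GA repeats.

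Before the comparisons, the libraries themselves differed. The GF+HFM lists held 36846, 31061, 34011 and 34183 peaks for replicates 1 to 4, and the CV+HFM lists held 29345, 9206, 21033 and 4533. CV+HFM replicates 2 and 4 were the shortest lists and had the narrowest peaks, with median widths of 186 and 103 bp against 298 to 464 bp in GF+HFM. The lists give positions without reads or scores, so depth is unknown and no counting error can be stated. Of the intestinal epithelial markers, Vil1 had 19 sites, Fabp2 and Cdx2 10 each, Lct 5 and Sis 3. Of the hepatocyte markers Alb, Fgb and Cyp7a1 had 0 and Ttr 5.

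HNF4A sites were dense at these 10 genes, which were chosen with earlier results of these data known. The 23 other genes of the same pathways described below had a median of 2 sites and ran from 0 to 12. Agpat9 had 12, Hsd17b11 11, Agpat3 and Agpat4 10 each and Plin2 9, so dense windows were not confined to the 10 genes. Because the 10 were chosen in that way, the lower median of the others is a description only. The median window of the 10 genes held 7.5 sites, against 2 over 22380 coding genes and 3 over the 14653 coding genes with any site. Per 100 kb of window the medians were 12.8 and 2.20 sites. Agpat2 held the most, 14 sites in a window of 51361 bp, which placed it at the 98.2 percentile of coding genes by number. Lpin2 had 13 sites in a longer window of 107258 bp, Plin3 and Cideb 10 each, Lipe 8, Pnpla2 and Gpam 7 each, Lpin3 6, Cidec 5 and Abhd5 3.

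By position, 4 sites lay over the start of their gene (Plin3, Cideb, Abhd5 and Agpat2), 8 touched an exon, 29 were intronic, 27 were upstream and 15 downstream. The nearest coding gene start was that of the member for 50 sites, and 32 sites overlapped another coding gene. Peak lists do not tell which gene a site serves. Of the 50 sites nearest to a member's own start, 42 (84%) were found by more libraries of GF+HFM than of CV+HFM. Of the 33 others 30 (90.9%) were, and of all merged sites 86.5%. The sites had a median length of 531 bp, against 437 bp for all sites, and ran from 160 to 2601 bp.

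**Figure D1:**
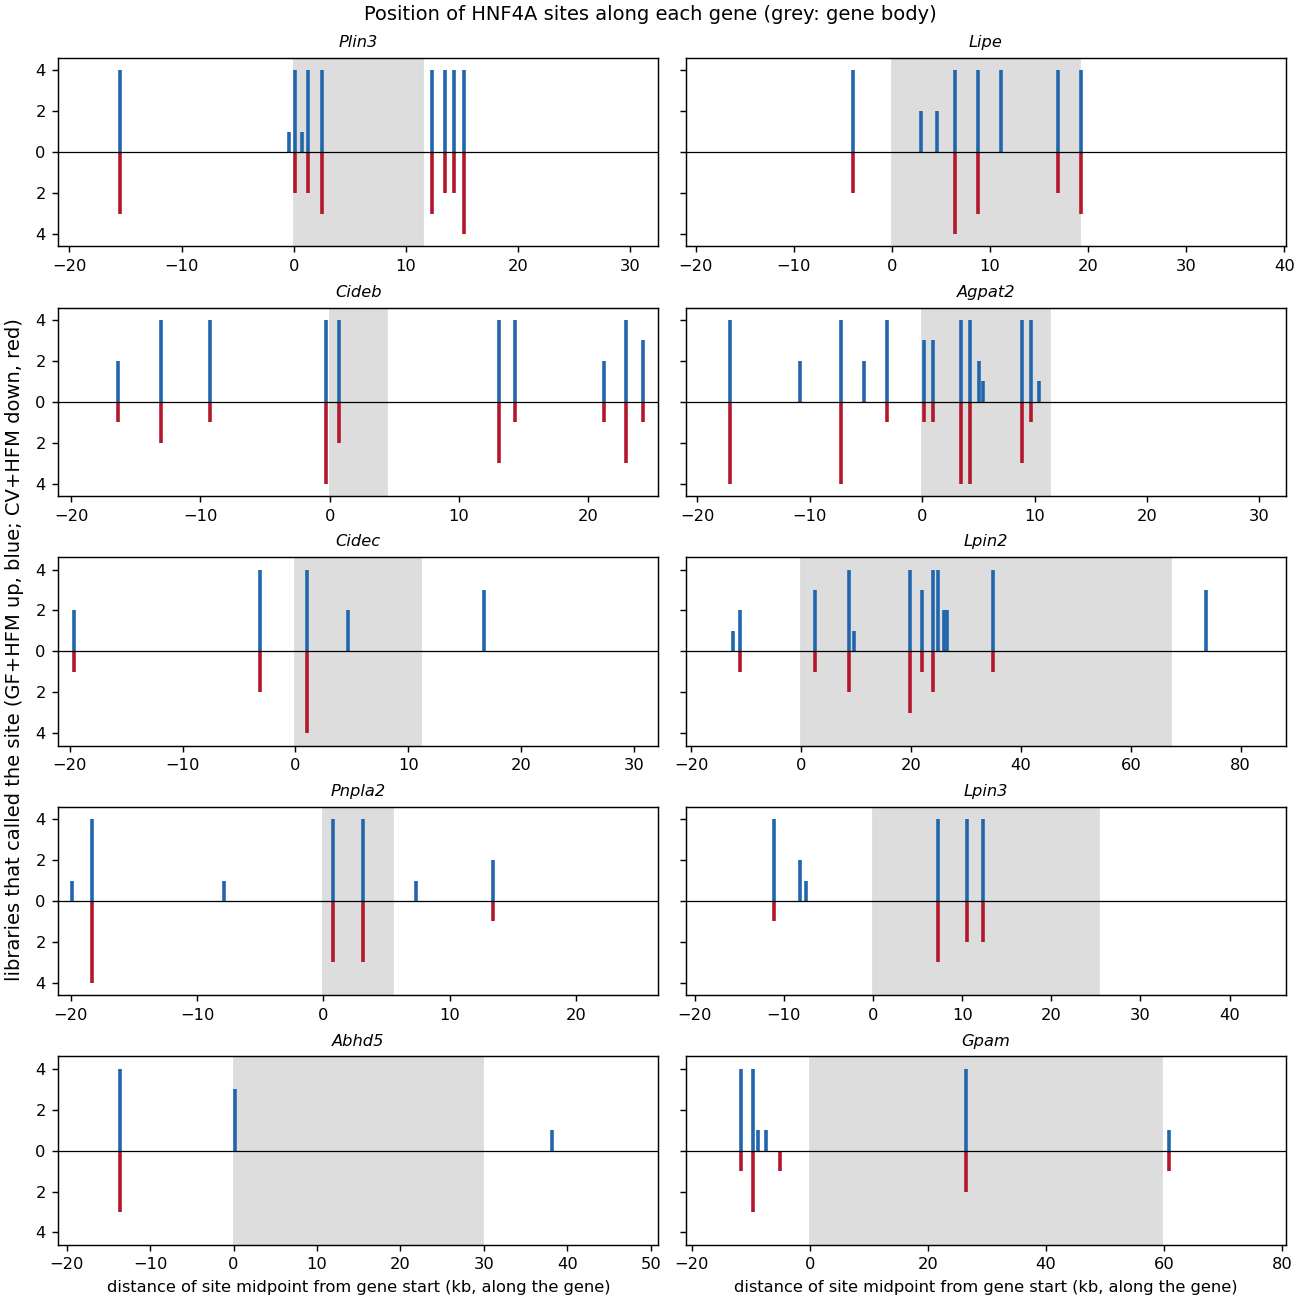
Distance of each HNF4A site's midpoint from the gene start in kb, along the direction of the gene, for the 10 genes, with the gene body in grey. Bars show how many of 4 GF+HFM libraries (up, blue) and of 4 CV+HFM libraries (down, red) called the site. Downward bars are shorter than upward bars at 72 of the 83 sites, of equal length at 10 and longer at 1, upstream of Gpam.

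Fewer of these sites were called with microbes. GF+HFM replicates 1 to 4 called 64, 55, 67 and 64 of the 83 sites (75.3% ± 6.26, SD, n = 4), and CV+HFM replicates called 54, 22, 39 and 10 (37.7% ± 23.2, n = 4). Every CV+HFM library called fewer than every GF+HFM library, although CV+HFM replicate 1 and GF+HFM replicate 2 differed by 1 site. Over all merged sites the mean shares called were 71.6% and 33.1%. Per 1000 sites that a library called, 1.84 to 2.04 were at these genes in GF+HFM, and 1.95, 2.52, 1.98 and 2.45 in CV+HFM replicates 1 to 4. The lower number at these genes thus went with shorter lists, and relative to list length the sites were not fewer in CV+HFM. Fewer cells with bound HNF4A and less binding per cell cannot be told apart in these preparations, and the part of peak-calling depth was not tested.

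In the peak names, GF+HFM replicates 1 and 2 and CV+HFM replicates 1, 2 and 3 have an identifier with a final A, and no source says what the letter stands for. Among the former the mean was 59.5 sites in GF+HFM and 38.3 in CV+HFM. Among the others it was 65.5 in GF+HFM, and the single CV+HFM library called 10. The CV+HFM mean was lower at all 10 genes among the libraries with the letter. The share of all coding genes with a lower mean was not counted. Groups did not overlap at 5 of the 10 (Cidec, Abhd5, Lipe, Agpat2 and Lpin3), against 22.9% of the 14171 coding genes with a site in these 5 libraries.

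Site by site, 72 of the 83 (86.7%) were found by more libraries of GF+HFM than of CV+HFM, 10 in equal numbers and 1 in more CV+HFM libraries. Over all sites these shares were 86.5% for more GF+HFM and 2.86% for more CV+HFM, so the balance at these genes was that of the whole set. The balance was different when each list was cut to its 4533 widest peaks, the length of the shortest list, a setting that changes list length and the narrowest width kept together. Then 28 sites were left, of which 13 were called in more GF+HFM libraries, 6 in equal numbers and 9 in more CV+HFM libraries, against 40.3% and 38.6% of all sites for the first and last. Without CV+HFM replicates 2 and 4, the number called in a larger share of GF+HFM libraries was 39. The share over all sites was not counted in that setting.

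Of the 83, 46 (55.4%) were called in all 4 GF+HFM libraries, against 50.6% of all sites. CV+HFM replicates 1 to 4 called 43, 22, 38 and 10 of these 46, or 93.5%, 47.8%, 82.6% and 21.7%, and the same libraries called 91.6%, 37.1%, 78.0% and 17.0% of the 23049 such sites of the whole set. Calls in CV+HFM were nested. The 22 sites of replicate 2 were all called by replicates 1 and 3, and so were the 10 of replicate 4. For 80 of the 83 sites (96.4%) the calls followed the order of list length, 1, 3, 2 and 4, as they did for 94.9% of all sites. The 3 exceptions were 2 sites called by replicate 3 alone and 1 called by replicates 1, 3 and 4. Width percentiles given for single sites are ranks among all sites a library called and depend on the length of its list, so their differences between lists of unequal length are given as a description.

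**Figure D2:**
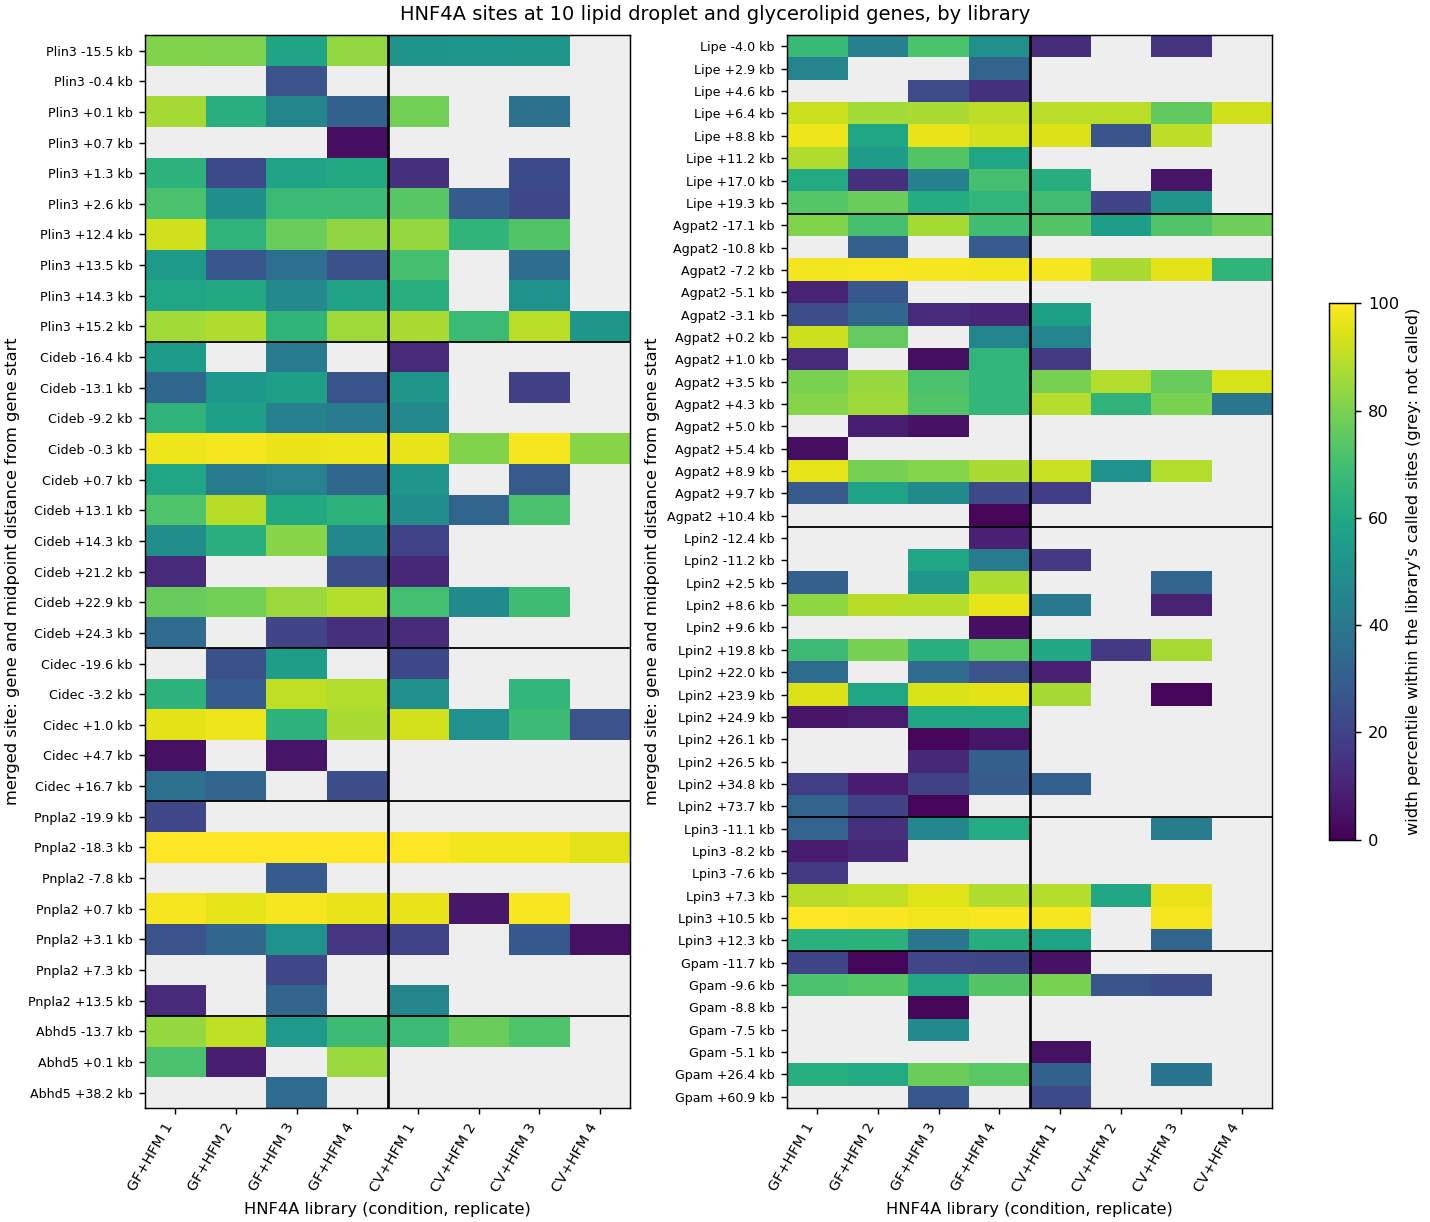
Width percentile of each of the 83 HNF4A sites among the sites its library called, in the 4 GF+HFM (left of the line) and 4 CV+HFM libraries, with rows grouped by gene and ordered by midpoint distance from the gene start. Grey marks a site the library did not call. The columns of CV+HFM replicates 2 and 4 hold 22 and 10 calls, and the 9 rows filled across belong to Plin3, Cideb, Cidec, Pnpla2, Lipe and Agpat2.

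Sites that were wider in GF+HFM were called in more CV+HFM libraries. The 46 sites were placed in quartiles of mean GF+HFM width percentile over all 23049 such sites, and 8, 10, 13 and 15 fell in quartiles 1 to 4 from narrow to wide. At least 2 CV+HFM libraries called 2 of 8, 8 of 10, 12 of 13 and 15 of 15 of them, or 25%, 80%, 92.3% and 100%. The same shares over all sites were 40.6%, 75.0%, 90.9% and 97.6%. CV+HFM replicate 4 called 6 of the 15 widest, and replicate 2 called 12 of them.

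**Figure D3:**
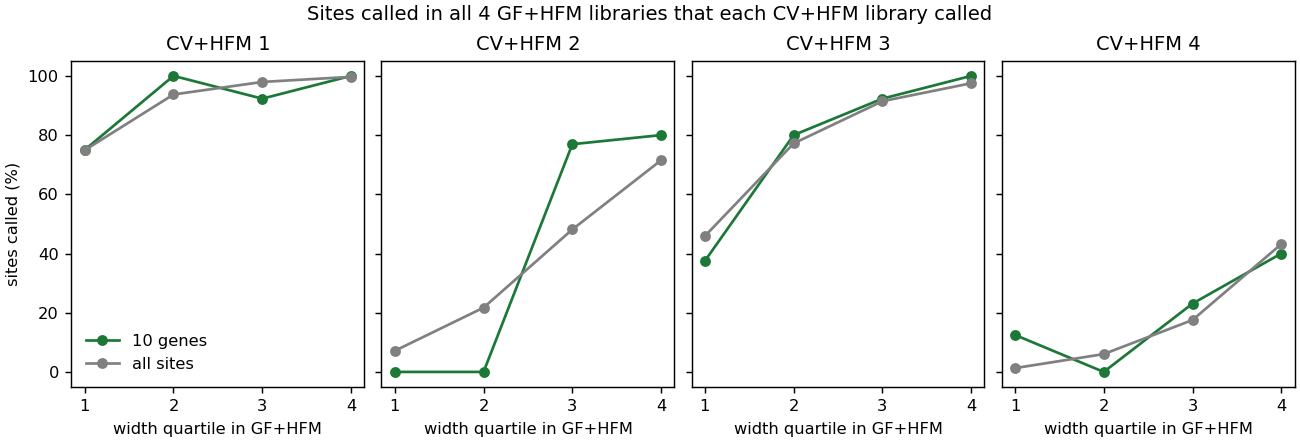
Percent of sites called in all 4 GF+HFM libraries that each CV+HFM library also called, by quartile of mean GF+HFM width percentile (1 narrow, 4 wide), for the 10 genes (green, 8 to 15 sites a quartile) and for all sites (grey). Both lines are higher in quartile 4 than in quartile 1 in each library, and CV+HFM replicate 4 reached 40% at these genes and 43.2% over all sites.

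At single sites, 2 of the 83 (2.41%) were called in all 4 GF+HFM and no CV+HFM library, against 2.79% of all sites. That pattern gives the smallest p that 4 against 4 libraries allow, 0.0286 in Fisher's exact test, two-sided, and the lowest adjusted p over all sites was 0.824. No site passed. Leaving out GF+HFM replicate 3 or replicate 4 gave 4 sites of the same pattern, and leaving out CV+HFM replicate 1 gave 8. The shares of all sites with the pattern were not counted there. Another 9 sites (10.8%) were called in all 8 libraries, against 7.56% of all sites. Without CV+HFM replicate 4 the number called in every library was 22, and over the whole set it rose from 3445 to 8375. At these genes the number was 4 with the 4533 widest peaks (857 over the whole set). It was 2 with peaks of at least 300 bp (244 over the whole set). It was 1 where a call had to cover at least 50% of the site (20 over the whole set). The 9 sites lay at Agpat2 (4), Plin3, Cideb, Cidec, Pnpla2 and Lipe (1 each).

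For the number of sites called per gene window, an exact permutation test over the 70 relabellings of the 8 libraries was run at each coding gene with a site. Its smallest p is 0.0286, reached by the 1788 genes in which every CV+HFM library called fewer sites than every GF+HFM library (12.2% of 14653), and the lowest adjusted p was 0.234. Among the 10 genes, 2 reached the smallest p (Abhd5 and Lipe), and none passed after adjustment. Passing would need far more than 12.2% of genes at that p, so this does not show that numbers were alike. The number of the 10 genes whose groups did not overlap was 7 without CV+HFM replicate 1 and 4 without GF+HFM replicate 4. It was 4 with 10 kb either side, 1 with 50 kb or with gene bodies only, and 0 with the 4533 widest peaks. The 12.2% belongs to the main setting, and the share of all coding genes was not counted under the others. Mean numbers were lower in CV+HFM at all 10 genes with the full lists. The CV+HFM libraries also called fewer of all merged sites, a mean of 33.1% against 71.6% in GF+HFM. How many of all coding genes had a lower CV+HFM mean was not counted.

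**Figure D4:**
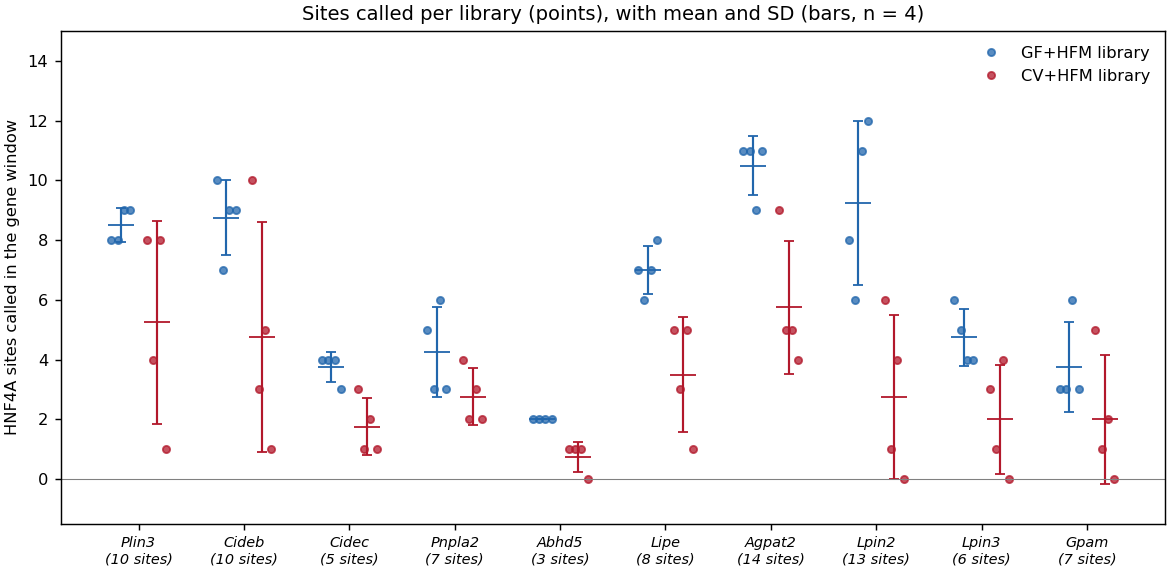
Number of HNF4A sites called in the window of each gene by each of the 4 GF+HFM (blue) and 4 CV+HFM libraries (red), with bars for the mean and SD and the number of merged sites under each name. The CV+HFM mean lies below the GF+HFM mean at each gene, and the points of both conditions do not overlap at Abhd5 and Lipe.

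Plin3 encodes perilipin 3 (TIP47), a coat protein that moves from the cytosol onto newly formed droplets. Its gene lies on chromosome 17 between 56418385 and 56429934 (minus strand). GF+HFM replicates 1 to 4 called 8, 8, 9 and 9 of its 10 sites, and CV+HFM replicates called 8, 4, 8 and 1 (exact permutation p = 0.171). CV+HFM replicates 1 and 3 thus equalled the lower GF+HFM libraries, and the difference in means rested on replicates 2 and 4. With the 4533 widest peaks of each list the mean difference was 0.75 sites higher in CV+HFM.

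The Plin3 site called in all 8 libraries ran from 56414357 to 56415177, 14757 bp from the gene start and inside Ticam1, whose start is 1032 bp away. Its width percentiles were 86.3, 88.1, 65.3 and 85.6 in GF+HFM and 87.2, 68.1, 89.5 and 52.9 in CV+HFM, so the ranges overlapped. The site over the Plin3 start, from 56429448 to 56430167, was called in 4 GF+HFM libraries, at percentiles of 86.6, 63.3, 45.4 and 31.1, and in CV+HFM replicates 1 and 3, at 78.8 and 37.4. The start was therefore called with and without microbes, at mid ranks. The other 8 sites were between 231 and 870 bp long.

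Cideb encodes a CIDE protein of liver and intestine that takes part in loading lipid onto nascent lipoproteins. The gene is short, on chromosome 14 between 56372882 and 56377295 (minus strand). Of its 10 sites, 10, 7, 9 and 9 were called by GF+HFM replicates 1 to 4 and 10, 3, 5 and 1 by CV+HFM replicates (exact permutation p = 0.143). CV+HFM replicate 1 called every one of them, as GF+HFM replicate 1 did.

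The site over the Cideb start, from 56376964 to 56378275, was wide for every list, though less so in CV+HFM replicates 2 and 4. Its percentiles were 97.4, 98.7, 96.9 and 97.3 in GF+HFM and 96.3, 81.2, 98.7 and 82.4 in CV+HFM. In bp it was 1016, 1053, 1159 and 1312 wide in GF+HFM and 868, 279, 909 and 243 in CV+HFM. Narrow peaks in CV+HFM replicates 2 and 4 were thus still wide for those lists. The remaining 9 sites were nearest to Cideb or to neighbours such as Dhrs1, Ltb4r1 and, by overlap, Adcy4, and only 2 of the 10 had the Cideb start as the nearest coding start.

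Cidec encodes FSP27, the CIDE protein that enlarges droplets by fusing them. The gene is on chromosome 6 between 113374628 and 113385754 (minus strand). Of its 5 sites GF+HFM replicates called 4, 4, 4 and 3 and CV+HFM replicates 3, 1, 2 and 1 (exact permutation p = 0.0571). The groups met at 3 sites. The site in all 8 libraries ran from 113384307 to 113385239 over exon 2, 515 bp from the gene start. Its percentiles were 96.0, 97.5, 64.6 and 87.2 in GF+HFM and 93.3, 50.4, 68.5 and 25.7 in CV+HFM. Ranked among the sites called in all 8 libraries, its width differed by -0.600 ± 0.479 (SE) normal score units, CV+HFM minus GF+HFM (limma, adjusted p = 0.586).

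Pnpla2 encodes adipose triglyceride lipase, which takes the first fatty acid off triacylglycerol. The gene is on chromosome 7 between 148641097 and 148646642 (plus strand). The GF+HFM replicates called 5, 3, 6 and 3 of its 7 sites, and CV+HFM replicates 4, 2, 3 and 2 (exact permutation p = 0.229), so the groups overlapped. The longest of the 83 sites, 2601 bp from 148621479 to 148624079, lay 17018 bp upstream of Pnpla2, over Slc25a22 and Lrdd, and covered the start of Slc25a22. Its lowest width percentile in GF+HFM was 99.7, and it stood at 99.7, 98.1, 98.2 and 95.3 in CV+HFM replicates 1 to 4.

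Nearer to Pnpla2 itself, the site from 148641143 to 148642527 touched an exon just inside the gene start. All 4 GF+HFM libraries called it, at percentiles of 98.5, 96.5, 98.6 and 96.8, and in CV+HFM replicates 1, 2 and 3, at 97.2, 6.57 and 99.0. In replicates 1 and 3 it was as wide, in rank, as without microbes, and in replicate 2 it was among the narrowest. This site was singled out after its values were seen. The other 5 sites were called in 1 to 7 libraries.

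Abhd5 encodes CGI-58, the co-activator that Pnpla2 needs for full activity. The gene is on chromosome 9 between 122260726 and 122290642 (plus strand) and had the fewest sites, 3. Each GF+HFM replicate called 2, and CV+HFM replicates called 1, 1, 1 and 0 (exact permutation p = 0.0286, adjusted p = 0.234). The groups did not overlap, at a difference of 1 to 2 sites. With the 4533 widest peaks each condition had 1 call, in GF+HFM replicate 2 and CV+HFM replicate 2, and the mean difference was 0.

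The Abhd5 site of highest mean width percentile, from 122246736 to 122247394, lay 13332 bp upstream and holds the exact element shown above. It was called in 4 GF+HFM libraries, at percentiles of 84.1, 90.5, 53.8 and 68.5, and in CV+HFM replicates 1, 2 and 3 at 68.2, 77.1 and 72.3. These ranks overlapped. The site over the Abhd5 start, from 122260428 to 122261308, was called in GF+HFM replicates 1, 2 and 4, at percentiles of 71.4, 8.44 and 84.8, and in no CV+HFM library (Fisher's exact test p = 0.143).

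Lipe encodes hormone-sensitive lipase, which acts on diacylglycerol and cholesteryl esters. The gene is on chromosome 7 between 26164546 and 26183729 (minus strand), and 7 of its 8 sites lay in the gene body. GF+HFM replicates called 7, 6, 7 and 8 and CV+HFM replicates 5, 3, 5 and 1 (exact permutation p = 0.0286, adjusted p = 0.234). The groups did not overlap with the full lists. With the 4533 widest peaks GF+HFM replicates called 2, 1, 2 and 2 sites and each CV+HFM replicate 1, and they did overlap.

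The Lipe site in all 8 libraries ran from 26176839 to 26177786 within intron 1, with 5943 bp to the gene start. It holds the exact element shown first above. Its percentiles were 92.0, 86.2, 87.5 and 90.0 in GF+HFM and 89.8, 89.7, 75.5 and 93.0 in CV+HFM, so its rank was high in both. A second site, from 26172237 to 26172920 in intron 2, was called in all 4 GF+HFM libraries, at percentiles of 88.2, 55.4, 73.4 and 59.1, and in no CV+HFM library (Fisher's exact test p = 0.0286, adjusted p = 0.824). It lay 10809 bp inside the gene, nearer to the start of 4732471J01Rik. In its width quartile, the third of the GF+HFM set, 12 of the 13 sites at these genes (92.3%) were called in at least 2 CV+HFM libraries. This site was the exception, and the share over all sites of that quartile was 90.9%.

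Gpam encodes the mitochondrial glycerol-3-phosphate acyltransferase that opens glycerolipid synthesis. The gene is on chromosome 19 between 55142142 and 55201824 (minus strand). Of 7 sites, GF+HFM replicates called 3, 3, 6 and 3 and CV+HFM replicates 5, 1, 2 and 0 (exact permutation p = 0.286), with overlap. Its site of highest mean rank ran from 55211098 to 55211753, 9274 bp upstream, at percentiles of 71.3, 73.7, 60.5 and 73.3 in GF+HFM and 80.1, 26.4 and 23.5 in CV+HFM replicates 1, 2 and 3.

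Gpam also held the 1 site of the 83 that no GF+HFM library called. It was 177 bp long, from 55206848 to 55207024, 5024 bp upstream. CV+HFM replicate 1 alone called it, at a width percentile of 4.61, among its narrowest sites. This single narrow call is over the repeat sequence printed above, and in the whole set 1197 sites had the same pattern of 0 and 1 libraries.

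Agpat2 encodes an acyltransferase that turns lysophosphatidic acid into phosphatidic acid. The gene is on chromosome 2 between 26448577 and 26459937 (minus strand), and Gm20532 overlaps its window. GF+HFM replicates called 11, 11, 9 and 11 of its 14 sites, and CV+HFM replicates 9, 5, 5 and 4 (exact permutation p = 0.0571). Both groups held a library with 9. With the 4533 widest peaks the order turned, with 3, 3, 2 and 2 sites in GF+HFM and 3, 5, 4 and 4 in CV+HFM, a mean difference of 1.5 sites higher in CV+HFM.

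Agpat2 had 4 of the 9 sites called in all 8 libraries, which were also all 4 of its sites in CV+HFM replicate 4. The widest, from 26466434 to 26467832, lay 6497 bp upstream, at percentiles of 98.3, 98.9, 98.4 and 97.8 in GF+HFM and 98.5, 87.2, 95.8 and 65.6 in CV+HFM. Another pair lay in intron 1. The first, from 26455360 to 26455994, stood at 81.9, 85.2, 72.7 and 66.1 in GF+HFM and 89.0, 64.9, 80.0 and 39.1 in CV+HFM.

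The second intronic Agpat2 site, from 26456163 to 26456745, holds both repeat matches printed above. It stood at percentiles of 80.0, 84.5, 71.3 and 66.1 in GF+HFM and 79.6, 88.6, 76.7 and 94.0 in CV+HFM. The last, 16714 bp upstream from 26476651 to 26477401, stood at 81.1, 70.4, 86.6 and 69.2 in GF+HFM and 73.2, 55.9, 72.7 and 77.7 in CV+HFM. By contrast, the site over the Agpat2 start, from 26459342 to 26460097, was called in GF+HFM replicates 1, 2 and 4, at 92.5, 76.1 and 44.9, and in CV+HFM replicate 1, at 45.1. The sites kept in every library were thus intronic and upstream, not at the start.

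Lpin2 and Lpin3 encode lipins, the phosphatidate phosphatases that yield diacylglycerol. Lpin2 is on chromosome 17 between 71531900 and 71599157 (plus strand), with 10 of its 13 sites in the gene body and 12 nearest to its own start. Numbers called were 8, 6, 11 and 12 in GF+HFM replicates 1 to 4 and 6, 1, 4 and 0 in CV+HFM replicates (exact permutation p = 0.0571). All 13 were found by more libraries of GF+HFM than of CV+HFM, as were 86.5% of all merged sites. The groups met at 6 sites, called by GF+HFM replicate 2 and by CV+HFM replicate 1.

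The Lpin2 site from 71556538 to 71557068, in intron 1 and 24638 bp from the start, was called in all 4 GF+HFM and no CV+HFM library (Fisher's exact test p = 0.0286, adjusted p = 0.824). It was narrow in 2 of them, at percentiles of 6.08 and 7.33 in replicates 1 and 2 and 59.1 and 59.3 in replicates 3 and 4. The adjacent site from 71555204 to 71556462, 23304 bp from the start, ranked at 94.8, 59.3, 94.3 and 95.8 in GF+HFM and at 86.6 and 1.62 in CV+HFM replicates 1 and 3. CV+HFM replicates 2 and 4 called neither.

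Lpin3 is on chromosome 2 between 160706406 and 160731738 (plus strand). GF+HFM replicates called 6, 5, 4 and 4 of its 6 sites, and CV+HFM replicates 3, 1, 4 and 0 (exact permutation p = 0.0857), so the groups met at 4. Its widest site ran from 160716026 to 160717839 over exon 2. The percentiles were 99.7, 99.4, 98.0 and 99.1 in GF+HFM and 98.7 and 98.8 in CV+HFM replicates 1 and 3. CV+HFM replicates 2 and 4 did not call it.

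To compare ranks over the same sites in every library, the 3445 sites called in all 8 libraries were ranked by width among themselves in each library (limma on normal scores of that rank, which differs from the percentiles within a whole list given for single sites). After Benjamini-Hochberg adjustment 4 sites passed (0.116%), each lower in CV+HFM, and 431 had an unadjusted p under 0.05. Of the 9 sites at these genes 0 passed, and 2 had an unadjusted p under 0.05. The intronic Agpat2 site with the repeat matches was 1.02 ± 0.420 (SE) normal score units higher in CV+HFM (limma, adjusted p = 0.373). The Pnpla2 upstream site had a difference, CV+HFM minus GF+HFM, of -0.681 ± 0.310 (limma, adjusted p = 0.391). The median difference was 0.293 over the 9 sites and 0.0371 over all, and neither direction was shared by all 9.

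Of 23 other genes of the same pathways, 21 had at least 1 HNF4A site, and Bscl2 and Agpat5 had none. They held 85 sites with a median of 2 a gene, of which 70 were called in more GF+HFM libraries, 14 in equal numbers, 1 in more CV+HFM libraries and 9 in all 8. For comparison, the whole set had 86.5% of sites with more GF+HFM calls, 2.86% with more CV+HFM calls and 7.56% found in every library. The groups did not overlap at 3 of the 21 genes, all lower in CV+HFM, against 12.2% of the 14653 coding genes with a site. Those 3 genes are described because of this pattern and were picked out after their counts were seen. G0s2, an inhibitor of Pnpla2, had a mean of 4.5 ± 0.577 called sites among GF+HFM libraries and 1.5 ± 1.73 among CV+HFM libraries (SD, n = 4). Agpat4, another acyltransferase, had 7.5 ± 1 and 2.25 ± 2.87, and Gpat2 had 1 in each GF+HFM library and 0 in each CV+HFM library. As for the 10 genes, the adjusted exact permutation p was 0.234 for these, and no gene of the list passed.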

How the data were processed

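HNF4A ChIP-seq lists of 4 GF+HFM and 4 CV+HFM mice were used, grouped by their labels. Per the submitters' processing notes and the study's methods, the authors aligned reads to mm9 (Bowtie2) and ran MACS2 (2.1.1.20160309) on each mouse against input DNA, to give narrow peaks. The deposited lists give chromosome, start, end and name, in bp, without a count, score or p-value. The planned use of peak strength was therefore replaced by peak width, summed over a library's peaks in a site. Peak numbers run with gaps (208 to 422 absent a list), and 4 lists lack 1 number around the Cideb window.

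Peaks sharing at least 1 bp were merged, and a site counted as called in a library with 1 or more peaks inside it. Genes were matched by symbol in GENCODE M1. Fisher's and permutation tests used scipy 1.17.1 and numpy 2.4.6, width ranks limma 3.58.1 in R 4.3.3, all two-sided with Benjamini-Hochberg adjustment at 0.05 over all sites or genes, checked on simulated data. Named sites were those called in all 8 libraries, in 4 GF+HFM and 0 CV+HFM, in more CV+HFM, over a gene start, or of highest mean width percentile at their gene. The members and lists were chosen with earlier results of these data known.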

Additional observations from a re-analysis of the deposited data

Results flagged for a closer look

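In 5 of 40 groups of 4 libraries, a single library stood apart by Dixon's ratio, where chance flags about 1 in 20 for continuous values. In the flagged groups of site counts the other libraries were tied. A tie sets the ratio to 1 whatever the gap, so that rate does not apply and no excess can be read from the 5. GF+HFM replicate 4 called 3 Cidec sites and the others 4 each. CV+HFM replicate 4 called 0 Abhd5 sites and the others 1 each. GF+HFM replicate 3 called 9 Agpat2 sites and the others 11 each, and it called 6 Gpam sites where the others called 3 each. The Plin3 site in all 8 libraries had a width percentile of 65.3 in GF+HFM replicate 3 and 85.6 to 88.1 in the others.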

How the results depend on the processing

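The most far-reaching choice was to equalise list length. With the 4533 widest peaks of each list, there were 28 sites, 13 of them in more GF+HFM libraries, 0 in all 4 GF+HFM and no CV+HFM library, 4 in all 8 and 0 genes whose groups did not overlap. The mean difference per gene, CV+HFM minus GF+HFM, reversed at Plin3 (0.75) and Agpat2 (1.5) and was 0 at Pnpla2, Abhd5 and Gpam. Narrowest kept widths ran from 52 bp in CV+HFM replicate 4 to 830 bp in GF+HFM replicate 4, so equal numbers are not equal widths. The cause of the reversals was not tested.

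With gene bodies only there were 41 sites, 36 of them in more GF+HFM libraries, 5 in all 8 and 1 gene without overlap. Genes without overlap numbered 4 with 10 kb either side and 1 with 50 kb. For genes without overlap, the share of all coding genes was not counted under the settings of this paragraph. Peaks of at least 300 bp gave 4 sites in all 4 GF+HFM and no CV+HFM library and 2 in all 8, and a minimum cover of 50% gave 1 in all 8. Without CV+HFM replicates 2 and 4, chosen after the lists were seen, 39 sites were called in a larger share of GF+HFM libraries and 37 in every library. Over the whole set 17316 sites were then called in every library, against 3445 with all 8. With each library left out in turn, sites numbered 77 to 84, those in more GF+HFM libraries 59 to 73, those in all GF+HFM and no CV+HFM library 2 to 8, those in every library 9 to 22 and genes without overlap 2 to 7. With libraries left out, or peaks of at least 300 bp, only sites in every library were also counted over the whole set. No site at these genes passed the limma width-rank test under any alternative (0 in each, with 0 to 4 at an unadjusted p under 0.05).

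The labels do not say whether the replicate numbers pair the samples. Deviations of same-numbered libraries correlated weakly, at 0.0322, 0.102, -0.0737 and 0.110 for numbers 1 to 4, which cannot decide it. Only for number 4 was the CV+HFM replicate with the highest correlation the one of the same number. With the replicate number as a block, 6 genes were lower in CV+HFM in all 4 same-numbered pairs, against 30.7% of the 14653 coding genes with a site, and 0 sites passed for width rank (1 at an unadjusted p under 0.05). Depth is unknown, so sites near the calling threshold cannot be separated from missed sites.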
